A study of Mus musculus with 32 samples.

Results

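The genes described here are the 10 mouse genes of the MHC class II presentation machinery: H2-Aa, H2-Ab1, H2-Eb1, Cd74, Ciita, H2-DMa, H2-DMb1, H2-DMb2, H2-Oa and H2-Ob. They were chosen by name, as the ligands of LAG-3 and the genes that load and control them, and all 10 were found among the 74021 genes of the sorted microglial table and among the genes of both other tables. RNA-seq of 32 libraries from mice was used. Microglia of non-transgenic wild-type (WT) littermates, not divided by LAG-3 (4 libraries), served as controls for SOD1G93A microglia sorted by LAG-3 level into low and high cells (5 libraries each), and these 14 libraries form the sorted set. The SOD1G93A mice of this sort were at postnatal day P140 by the study's methods, and the labels give no age for either genotype. A separate set of SOD1G93A microglia came from LAG-3+/+ and LAG-3-/- mice, each taken at P120 or at P140 (3 libraries for each of the 4 groups), and whole lumbar spinal cord came from P140 SOD1G93A mice of both Lag3 genotypes (3 libraries each). SOD1G93A mice, a model of amyotrophic lateral sclerosis, carry a human SOD1 transgene with the G93A change under the human SOD1 promoter, which is active in all tissues (strain B6.Cg-Tg(SOD1*G93A)1Gur/J). All mice of the stage and cord sets carried it in heterozygous form. The LAG-3-/- mice carry a germline disruption of Lag3 (strain B6.129S6(Cg)-Lag3tm1Doi/J), which is not limited to microglia. Microglia were gated as CD11b-positive, CD45-intermediate cells of the lumbar cord.

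MHC class II molecules are pairs of an alpha and a beta chain that display peptides from ingested proteins to CD4+ T cells, and LAG-3 binds to them. H2-Aa and H2-Ab1 encode the chains of I-A, and H2-Eb1 encodes the beta chain of I-E. C57BL/6 mice lack a functional alpha chain gene for I-E, so H2-Eb1 mRNA there does not give surface I-E. Cd74 encodes the invariant chain that fills the groove during assembly, H2-DM (H2-DMa with H2-DMb1 or H2-DMb2) exchanges its remnant for peptide, and H2-O (H2-Oa with H2-Ob) restrains H2-DM. Ciita encodes the transactivator that is recruited to class II promoters by factors bound at the X and Y boxes. In the healthy nervous system microglia carry little class II at the surface, and dendritic cells, B cells and border macrophages are the better known class II cells.

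In the GRCm39 build, 8 of the 10 genes lie within 224 kb of chromosome 17 (positions 34311314 to 34535648), and Ciita lies on chromosome 16 (10297923 to 10347694, plus strand). H2-Aa (34493404 to 34506798, minus strand) and H2-Eb1 (34504236 to 34535648, plus strand) overlap by 2563 bases on opposite strands. The microglial libraries were made with a kit that does not mark strand, so reads from any exons shared there could not be told apart by strand. The canonical H2-Eb1 transcript starts after position 34524812, outside the shared stretch, and overlap of exons was not checked. H2-DMb1 (34372046 to 34379204) and H2-DMb2 (34362197 to 34370529) are near-identical neighbours, and the split of reads between them is uncertain. H2-Ab1 (34476663 to 34488393), H2-DMa (34338515 to 34358958), H2-Oa (34311314 to 34314328) and H2-Ob (34457836 to 34473388) all lie on the plus strand.

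The promoters are shown because class II genes are known for shared X and Y boxes, and the windows differ in which of the searched letters they hold. A script searched the 250 bases before the canonical transcript start for ATTGG, the core of the Y box, on both strands (its reverse is CCAAT), and for TGANG, a core of the X box, 15 to 25 bases before ATTGG on the same strand. The spacing was set after these windows had been seen, so the counts are a description only. ATTGG was found in 6 of the 9 member windows searched, against 36.5% of 21757 windows of protein-coding genes. The TGANG and ATTGG pair was found in 5 of the 9, against 2.57% of all windows on either strand. H2-Ab1 had ATTGG without the pair, while Ciita, H2-DMb1 and H2-Oa had neither, which says only that these letters are not in those windows. The last 100 bases before the start are printed in the direction of the gene, from the genome sequence of GRCm39, with the Y-box core (either strand) and any X-box core paired with it in capitals. They are, in order, chr17:34506798-34506897 (minus strand), chr17:34482083-34482182, chr17:34524713-34524812, chr17:34354460-34354559, chr17:34364074-34364173 and chr17:34457736-34457835 (plus strand).
H2-Aa: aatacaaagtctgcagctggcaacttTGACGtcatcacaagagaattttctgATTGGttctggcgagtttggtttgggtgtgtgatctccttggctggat
H2-Ab1: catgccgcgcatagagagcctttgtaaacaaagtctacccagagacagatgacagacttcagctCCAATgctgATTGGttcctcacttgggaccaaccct
H2-Eb1: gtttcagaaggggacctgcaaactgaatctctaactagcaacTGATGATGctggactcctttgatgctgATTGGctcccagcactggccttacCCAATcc
H2-DMa: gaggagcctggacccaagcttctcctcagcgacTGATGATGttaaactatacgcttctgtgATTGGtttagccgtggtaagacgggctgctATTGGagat
H2-DMb2: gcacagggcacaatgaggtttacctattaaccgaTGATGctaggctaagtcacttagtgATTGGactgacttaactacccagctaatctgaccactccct
H2-Ob: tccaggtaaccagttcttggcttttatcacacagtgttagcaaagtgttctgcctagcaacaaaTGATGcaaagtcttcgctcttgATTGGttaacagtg
In H2-Aa, ATTGG began 48 bases before the start with TGACG 21 bases upstream of it, and in H2-Ob it began 14 bases before the start with a gap of 17 bases.

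Library totals ranged from 9403475 to 49512632 estimated counts, and levels are given as CPM, the counts of a gene per mega-count of its library's size after TMM scaling. Lag3 followed the labels in every library: 0.506 to 9.97 CPM in WT, 34.7 to 57.7 in LAG-3-low, 146 to 195 in LAG-3-high, 24.4 to 62.9 in LAG-3+/+ and 0.0238 to 0.461 in LAG-3-/- microglia, and 43.4 to 74.4 in LAG-3+/+ against 5.50 to 5.71 in LAG-3-/- cord. Summed microglial markers (8 genes) were 13339 CPM or more in all microglial libraries. Summed neutrophil markers (10 genes, S100a8 and S100a9 among them) were 5950 to 70276 CPM in WT and LAG-3-low libraries but 3.47 to 9.66 in LAG-3-high libraries. Of the B cell markers (8 genes, summed level 327 to 1071 CPM in microglial libraries), Pax5 was at 0.0869 CPM or less, Cd79a at 1.07 or less and Ms4a1 at 0.354 to 2.64, while Cd79b reached 91.0 and Ighd 45.2 CPM in WT, and most of the sum was Ighm and Blnk. T and NK cell markers (8 genes) summed to 32.6 CPM or less. Genes with an adjusted p under 0.1 were called, and in the sorted and cord sets the log2 fold change also had to exceed 1 in size. All log2 fold changes, their SE and adjusted p-values come from the quasi-likelihood fits of edgeR, adjusted by Benjamini-Hochberg over every gene that entered the fit. The sources used here do not say how many mice gave each library, or whether the same mice gave low and high cells. The p-values therefore measure only the spread between these libraries. The low and high groups share their WT controls, and the age and genotype comparisons share groups in the same way.

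Compared per kilobase of transcript, the order of levels differed between groups. In LAG-3-high microglia Cd74 came first, at 906 ± 316 CPM per kb (SD, n = 5), followed by H2-DMa (252 ± 15.6) and H2-Ab1 (233 ± 80.0), whose levels did not differ beyond their spread, then H2-DMb1 (164 ± 6.83), H2-Aa (107 ± 38.1) and H2-Oa (31.9 ± 6.79). In P120 SOD1G93A/LAG-3+/+ microglia H2-DMa came first (231 ± 21.1 CPM per kb, SD, n = 3), ahead of Cd74 (154 ± 46.9) and H2-DMb1 (123 ± 1.15), while H2-Aa (3.77 ± 0.869) and H2-Eb1 (0.996 ± 0.928) stood below H2-Oa (28.5 ± 1.73) and H2-Ob (26.5 ± 3.85). In WT microglia the levels of H2-DMa (344 ± 89.2 CPM per kb, SD, n = 4), H2-Ab1 (236 ± 347) and Cd74 (161 ± 274) could not be ordered against their spread. In LAG-3+/+ cord the order was Cd74 (20.6 ± 1.70 CPM per kb, SD, n = 3), H2-DMa (9.49 ± 0.573) and then H2-Ab1, H2-DMb1 and H2-Aa (5.04, 4.81 and 4.55), which did not differ beyond their spread. Ciita was last in all 9 groups, at 0.667 CPM per kb or less.

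The class II genes rose between P120 and P140 in SOD1G93A/LAG-3+/+ microglia. Of the 10 genes 7 were called higher and none lower: both I-A chains, H2-Eb1, Cd74, H2-DMa, H2-DMb1 and H2-Oa. In this comparison 11.9% of all 18669 genes tested were called higher. All 10 log2 fold changes were positive (H2-Ob turned to -0.02 without TMM), with a median of 1.26 against -0.22 over all genes. DESeq2 also called 7, and 6644 of all genes, 3178 of them higher. For 8 genes every P140 library lay above every P120 library, as it did for 16.8% of all genes. The peptide-binding chains rose 5.22-fold (H2-Ab1) to 22.7-fold (H2-Eb1), and Cd74, H2-DMa, H2-DMb1 and H2-Oa rose 2.37-, 2.26-, 2.42- and 2.25-fold.

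H2-Aa, the alpha chain of I-A, was at 3.55, 3.83 and 5.37 CPM at P120 and at 86.2, 89.9 and 87.2 CPM at P140. The P140 libraries lay close to each other and far above the P120 range, and H2-Aa rose 20.6-fold (log2 fold change 4.37, SE 0.439, adjusted p = 0.00185). H2-Ab1, its beta chain partner, went from 35.7, 62.9 and 31.0 CPM to 221, 254 and 202 CPM, a rise of 5.22-fold (log2 2.38, SE 0.415, adjusted p = 0.00635). H2-Eb1 went from 3.33, 0.185 and 1.56 CPM to 38.2, 36.3 and 41.0 CPM (log2 4.51, SE 0.876, adjusted p = 0.00816). The P120 values of H2-Eb1 were low and uneven. Whether any of its reads come from the stretch shared with H2-Aa was not checked. Cd74, the invariant chain, went from 187, 297 and 177 CPM to 505, 621 and 441 CPM (log2 1.25, SE 0.306, adjusted p = 0.0183). Its P120 level was much nearer to its P140 level than that of H2-Aa.

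H2-DMa, the alpha chain of the peptide exchanger, went from 289, 269 and 240 CPM to 515, 685 and 606 CPM (log2 1.18, SE 0.260, adjusted p = 0.0123). H2-DMb1 went from 171, 174 and 173 CPM to 364, 455 and 433 CPM (log2 1.27, SE 0.249, adjusted p = 0.00827). H2-Oa, a chain of the H2-DM inhibitor, went from 35.7, 35.6 and 32 CPM to 65.8, 91.0 and 75.8 CPM (log2 1.17, SE 0.328, adjusted p = 0.0306). The P120 and P140 ranges of these 3 genes did not overlap. The values of its partner H2-Ob were 59.8, 78.5 and 77.2 CPM against 81.2, 126 and 94.8 CPM (log2 0.49, adjusted p = 0.257), which did not overlap either but were not called. H2-DMb2 (14.3 to 18.3 against 16.4 to 34.8 CPM) was not called. Ciita had 39, 14 and 3 counts at P120 and 55, 1 and 32 counts at P140, so the transactivator's own mRNA was near the floor of 3 counts in single libraries of both ages and was not called.

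Other features of the libraries moved with age. Summed microglial markers were 21875 to 24485 CPM at P120 and 35539 to 44059 at P140, genes with at least 1 count numbered 24136 to 24942 and 18896 to 20489, and summed monocyte and border macrophage markers (9 genes) were 10.2 to 20.3 and 111 to 150 CPM. The list did not move together: 1 of its 7 tested genes was called higher and none lower. Ccr2 (1.29 CPM or less), F13a1 (0.913 or less) and Cd163 (0.0205 or less) were low at both ages. Summed dendritic cell markers (9 genes) moved the other way, from 83.9 to 91.2 CPM down to 8.54 to 18.3 CPM, with Cd209a at 0 in both groups and Fscn1 as most of the P120 sum. The B cell list (8 genes) went from 473 to 553 CPM up to 845 to 1071 CPM, with 3 of 5 tested genes called higher (Cd79b, Ighm and Blnk) and Cd79a at 0 in both groups. The part of these features in the result was not tested. In bulk libraries, fewer cells of a type and less RNA per cell cannot be told apart. Without TMM scaling the median of all genes moved to -0.70, all genes called split into 971 higher of 5091 in place of 2219 of 5118, and Cd74 (log2 0.75, adjusted p = 0.120) and H2-Oa (0.67, adjusted p = 0.129) were no longer called while the other 5 were. The same 2 genes lost the call once values were corrected for length and GC content of transcripts (0.62, adjusted p = 0.214, and 0.51, adjusted p = 0.246), and H2-Oa also without P120 LAG-3+/+ replicate 3 (adjusted p = 0.103).

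**Figure D1:**
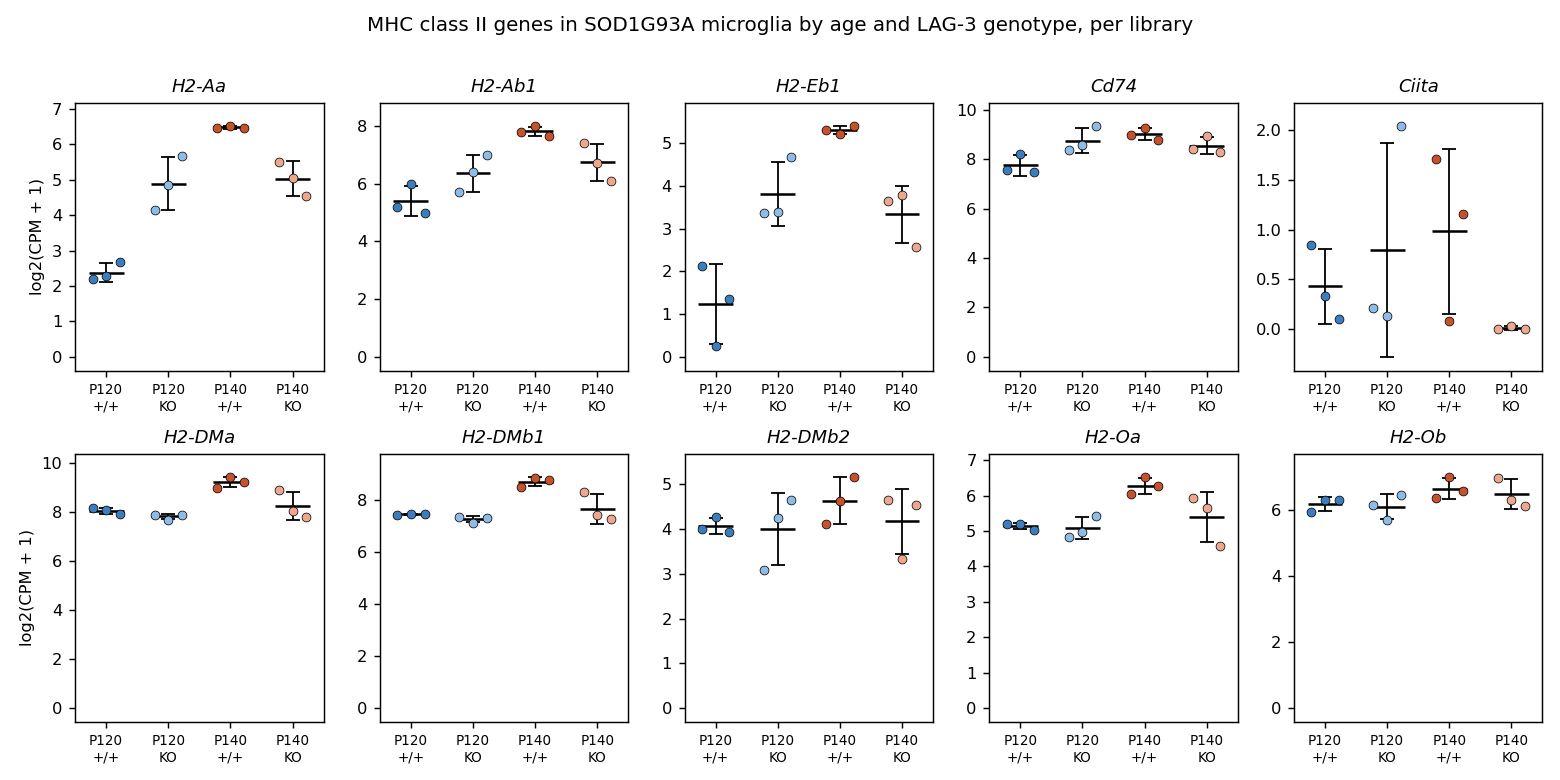
Each panel plots 1 class II gene in SOD1G93A microglia as log2(CPM + 1), with the 4 groups of age (P120, P140) and Lag3 genotype (+/+, KO for LAG-3-/-) on the x axis. Points are libraries and bars are the mean ± SD of 3 libraries. H2-Aa, H2-Ab1 and H2-Eb1 climb from P120 to P140 in +/+ but lie at similar heights at both ages in KO.

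The age difference was not called for any of the 10 genes in SOD1G93A/LAG-3-/- microglia. H2-Aa was at 16.7, 27.9 and 49.4 CPM at P120 and at 44.2, 32.3 and 22.0 CPM at P140 (log2 0.07, SE 0.382, adjusted p = 0.990), so the ages overlapped. H2-Ab1 was at 51.4, 83.1 and 126 CPM and then at 168, 105 and 67.8 CPM (log2 0.39, SE 0.395, adjusted p = 0.874). Cd74 was at 329, 378 and 647 CPM and then at 340, 494 and 311 CPM (log2 -0.24). H2-DMa was at 233, 207 and 239 CPM and then at 482, 266 and 220 CPM (log2 0.51, adjusted p = 0.605), with the first and second P140 libraries above the P120 range and the other within it. No gene of all 18669 was called in this comparison (0%), although 1658 genes had an unadjusted p under 0.05, 1 of them a class II gene (Ciita). DESeq2 called Ciita, and 449 of all genes.

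Whether the age change depended on Lag3 was tested as the interaction of genotype and stage. H2-Aa was called lower (log2 -4.30, SE 0.564, adjusted p = 0.0374), and 0.0107% of all genes were called lower. Its LAG-3-/- libraries stood above the LAG-3+/+ libraries at P120 and below them at P140, with no overlap at either age. All 10 interaction values were negative (H2-Ob turned to 0.09 without TMM), with a median of -1.15 against 0.18 over all genes, but those of H2-Ab1 (-2, SE 0.563, adjusted p = 0.205), H2-Eb1 (-5.07, SE 1.13, adjusted p = 0.176) and Cd74 (-1.49, SE 0.429, adjusted p = 0.211) were not called. DESeq2 called 5 of the 10 (H2-Aa, H2-Ab1, H2-Eb1, Cd74 and Ciita), and 1301 of all 18669 genes, 909 of them higher. The call of H2-Aa was lost in 7 of 12 fits that left out a library, with values from -4.60 to -3.80 and adjusted p from 0.00431 to 0.165. Those 7 fits called 0 of all genes for the interaction, and the main fit called 32. The H2-Aa call was also lost with the listed sex as a covariate, where 0 of all 18669 genes were called.

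At P120, none of the 10 genes was called between LAG-3-/- and LAG-3+/+ microglia, with 4 at an unadjusted p under 0.05, and 2 were called by DESeq2 (H2-Aa and H2-Eb1). Of all genes, edgeR called 0.0107% and DESeq2 called 134, and 551 had an unadjusted p under 0.05 in the edgeR fit. H2-Aa had a log2 fold change of 2.88 (SE 0.411, adjusted p = 0.107), H2-Eb1 of 3.09 (SE 0.822), Cd74 of 1.04 (SE 0.305) and H2-Ab1 of 1 (SE 0.398). The LAG-3-/- libraries lay above all LAG-3+/+ libraries for H2-Aa, H2-Eb1 and Cd74, as for 4.85% of all genes, while those of H2-Ab1 overlapped. H2-DMa (log2 -0.24) and H2-DMb1 (log2 -0.18) lay below without overlap, as did 6.63% of all genes, by far smaller margins. H2-Oa, H2-Ob, H2-DMb2 and Ciita overlapped. Summed neutrophil markers were 1740 to 2574 CPM in LAG-3+/+ and 2.68 to 6.57 CPM in LAG-3-/- libraries, and monocyte and border macrophage markers were 10.2 to 20.3 and 0.651 to 65.1 CPM. Their part in these values was not tested.

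At P140, 4 of the 10 genes were called lower in LAG-3-/- than in LAG-3+/+ microglia and none higher: H2-Aa, H2-DMa, H2-DMb1 and Ciita. In this comparison 3% of all genes were called lower. H2-Aa, at 86.2 to 89.9 CPM in LAG-3+/+, was at 22.0 to 44.2 CPM in LAG-3-/- (log2 -1.42, SE 0.389, adjusted p = 0.0656). H2-DMa was at 515 to 685 CPM against 220 to 482 CPM (log2 -0.90, SE 0.259, adjusted p = 0.0739), and H2-DMb1 at 364 to 455 CPM against 151 to 313 CPM (log2 -0.98, SE 0.247, adjusted p = 0.0534). Ciita had 55, 1 and 32 counts against 0, 1 and 0 counts (adjusted p = 0.0905). The second LAG-3+/+ library had 1 Ciita count, as did the second LAG-3-/- library, and a fitted fold of such counts depends on the prior count. All 10 log2 fold changes were negative (H2-Ob turned to 0.15 without TMM), with a median of -0.94 against 0.14 over all genes. DESeq2 called 7, and 4281 of all genes, 2370 of them higher.

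H2-Ab1 was at 202 to 254 CPM in LAG-3+/+ and at 168, 105 and 67.8 CPM in LAG-3-/- (log2 -0.99, adjusted p = 0.163), H2-Eb1 at 36.3 to 41.0 against 4.93 to 12.8 CPM (log2 -1.99, adjusted p = 0.156), and H2-Oa at 65.8 to 91.0 against 23.1 to 60.0 CPM (log2 -0.81, adjusted p = 0.164). These 3 genes and the 4 called genes did not overlap between genotypes, as for 8.92% of all genes in this direction. For Ciita this rests on the scaling of 1 count by library size, 0.0568 CPM in LAG-3+/+ against 0.0238 CPM in LAG-3-/-. Cd74 overlapped (441 to 621 against 311 to 494 CPM, log2 -0.45), as did H2-DMb2 and H2-Ob. The first LAG-3-/- library stood nearest to LAG-3+/+ for H2-DMa (482 CPM) and H2-DMb1 (313 CPM), though its Lag3 level was 0.158 CPM. It also held fewer genes with a count (20260 against 23896 and 23459) and more summed microglial markers (38434 against 22059 and 21462 CPM) than the other LAG-3-/- libraries, values near those of the LAG-3+/+ libraries. Summed monocyte and border macrophage markers were 111 to 150 CPM in LAG-3+/+ and 48.0 to 201 CPM in LAG-3-/- libraries. Single genes of that list differed: 1 of 7 tested was called higher in LAG-3-/-, and 3 of 7 log2 fold changes were positive. Ccr2 was at 0.083 CPM or less in LAG-3+/+ and at 0.0953 to 36.6 CPM in LAG-3-/- libraries. The part of these features in the result was not tested. Without LAG-3-/- replicate 1, 5 class II genes were called, with adjusted p of 0.00146 for H2-DMa and 0.000653 for H2-DMb1. All genes called then rose too, from 1908 of 18669 to 4140 of 20508 (2439 higher). Without LAG-3-/- replicate 2 or 3 they were 95 and 151. H2-Aa, H2-DMa and H2-DMb1 each lost the call in 4 of 6 fits that left out a library and Ciita in all 6, and none of the 10 was called at an adjusted p under 0.05. With values corrected for length and GC content of transcripts, only Ciita was called (H2-Aa -0.86, adjusted p = 0.231). Without TMM the median of all genes was 0.47, all genes called were 2048 higher of 2291 in place of 1347 of 1908, and H2-Aa was not called (adjusted p = 0.107).

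The levels of the peptide-binding chains overlapped between the LAG-3 sorts. In LAG-3-high against LAG-3-low SOD1G93A microglia none of the 10 genes was called, with 3.49% of 16508 genes called. At an unadjusted p under 0.05 there were 3 class II genes (1988 of all genes), and DESeq2 called none (988 of all genes). H2-Aa was at 124, 95.7, 113, 192 and 80.4 CPM in LAG-3-high and at 128, 97.2, 3.27, 145 and 341 CPM in LAG-3-low libraries (log2 -0.24, SE 1.38, adjusted p = 0.994). H2-Ab1 was at 207, 288, 294, 433 and 186 CPM and at 460, 251, 31.2, 322 and 808 CPM (log2 -0.41, SE 0.905, adjusted p = 0.965). Cd74 was at 974, 1208, 1391, 2022 and 885 CPM and at 949, 624, 101, 844 and 1705 CPM (log2 0.62, SE 0.983, adjusted p = 0.938). H2-Eb1 was at 33.9, 24, 39.7, 71.3 and 26.3 CPM and at 103, 58.4, 4.74, 49.7 and 177 CPM (log2 -1.01, SE 1.35, adjusted p = 0.917). The LAG-3-high values of each of these genes lay within the range of the LAG-3-low values, apart from the highest Cd74 value. The highest H2-Aa level was 104 times the lowest among LAG-3-low and 2.39 times the lowest among LAG-3-high libraries, and for H2-Ab1 these ratios were 25.9 and 2.33.

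H2-DMa, H2-DMb1 and H2-Oa had narrower spreads than the chains within both groups. H2-DMa was at 272, 306, 312, 285 and 276 CPM in LAG-3-high and at 208, 215, 181, 199 and 246 CPM in LAG-3-low libraries (log2 0.47, SE 0.169, adjusted p = 0.209). H2-DMb1 was at 230, 214, 234, 238 and 235 CPM and at 144, 162, 130, 144 and 201 CPM (log2 0.56, SE 0.219, adjusted p = 0.272). H2-Oa was at 51.7, 32, 31.9, 36.5 and 40.8 CPM and at 22.8, 15.3, 10.9, 23.6 and 22.5 CPM (log2 1.02, SE 0.357, adjusted p = 0.190). For these 3 genes every LAG-3-high library lay above every LAG-3-low library, as for 8.99% of all genes. Neutrophil markers also separated these groups, as given above, and summed microglial markers were 18741 to 20657 CPM in LAG-3-high and 13339 to 20016 CPM in LAG-3-low libraries. Their part in these differences was not tested. H2-Ob (47.4 to 75.9 against 38.2 to 75.2 CPM) and H2-DMb2 (14.2 to 20.4 against 10.7 to 30.6 CPM) overlapped. Ciita was at 5.01, 3.33, 1.54, 0.992 and 0 CPM against 0.870, 12.2, 0, 0 and 11.9 CPM, with 2 LAG-3-low libraries and 1 LAG-3-high library at 0 counts.

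**Figure D2:**
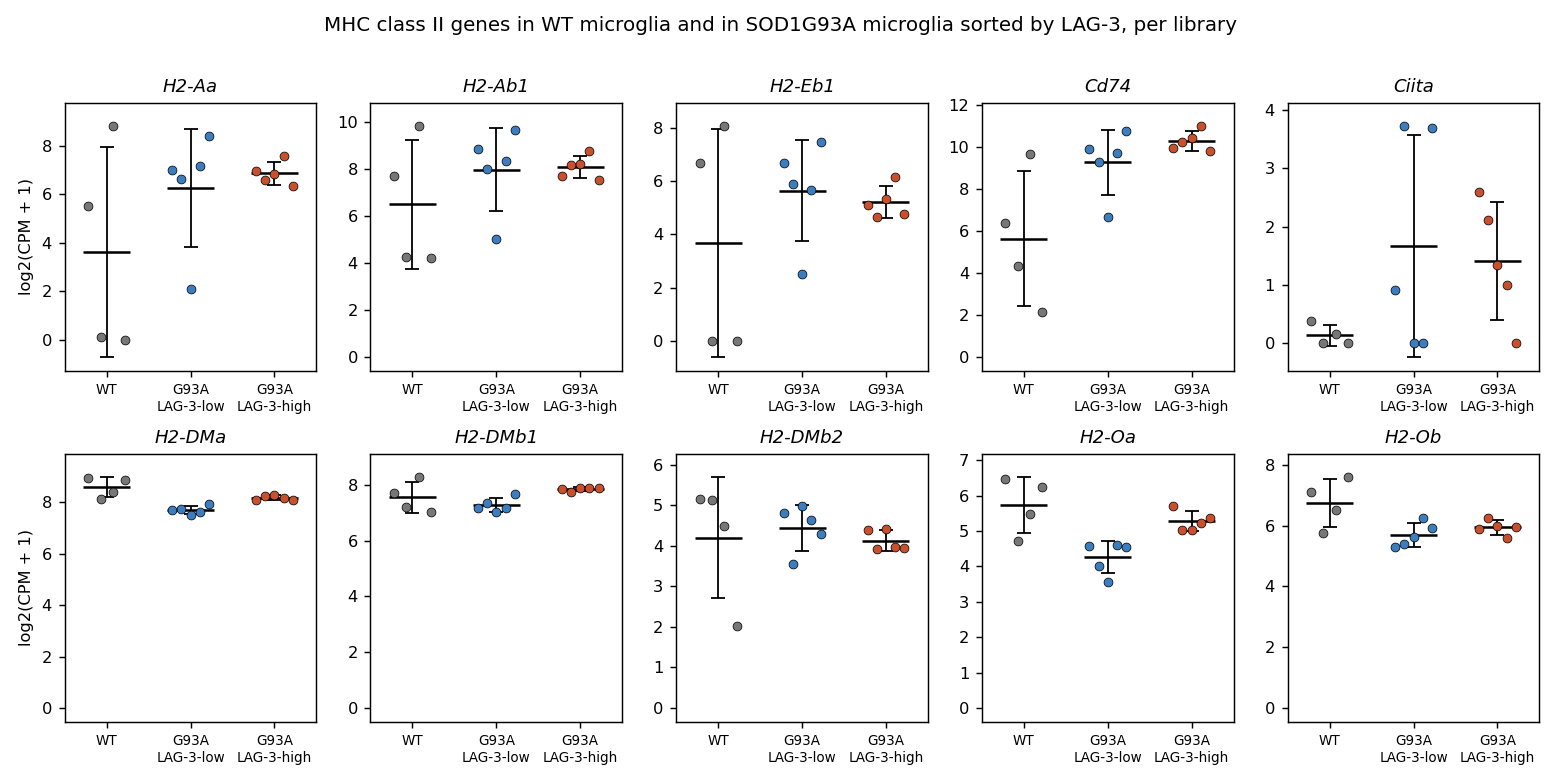
Each panel plots 1 class II gene as log2(CPM + 1) in WT (4 libraries), SOD1G93A LAG-3-low and SOD1G93A LAG-3-high microglia (5 libraries each). Points are libraries and bars are the mean ± SD. The chains and Cd74 scatter widely in WT and LAG-3-low and lie close together in LAG-3-high, while H2-DMa, H2-DMb1 and H2-Oa in LAG-3-high lie above LAG-3-low.

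The WT libraries divided in the class II chains. H2-Aa was at 45.6, 0.0869, 450 and 0 CPM, H2-Ab1 at 206, 18.3, 902 and 17.6 CPM, and H2-Eb1 at 102, 0, 269 and 0 CPM. Cd74 was at 81.6, 19.1, 815 and 3.35 CPM, 243 times higher in the highest WT library than in the lowest. Replicates 1 and 3 were the high ones for all 4 genes. The same libraries held the border macrophage markers Mrc1 (44.2 and 141 CPM), Lyve1 (16.1 and 86.8), Cd163 (34.3 and 58.5) and Pf4 (19.7 and 116), each at 0 in the other WT libraries. The summed list of 9 monocyte and border macrophage genes was 182, 39.8, 796 and 47.0 CPM in WT, 619, 503, 231, 283 and 292 CPM in LAG-3-low and 83.9 to 154 CPM in LAG-3-high libraries, where Cd163, Ly6c2 and Lyve1 were at 0. Among LAG-3-low libraries replicate 5, with the highest H2-Aa, H2-Ab1 and H2-Eb1, also had the highest level of Cd209a, a dendritic cell gene (133 CPM, against 30.7, 0, 0 and 18.6). The whole dendritic cell list (9 genes) summed to 67.2, 25.2, 67.2 and 51.1 CPM in WT, 83.9, 45.8, 45.4, 67.3 and 224 CPM in LAG-3-low and 41.4 to 79.1 CPM in LAG-3-high libraries. In LAG-3-high libraries Fscn1 (30.9 to 63.0 CPM) made up most of it, and Cd209a, Clec10a and Ccr7 were at 0, the last of them in all 3 groups. The part of these cells in the class II levels of WT and LAG-3-low libraries was not tested.

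**Figure D3:**
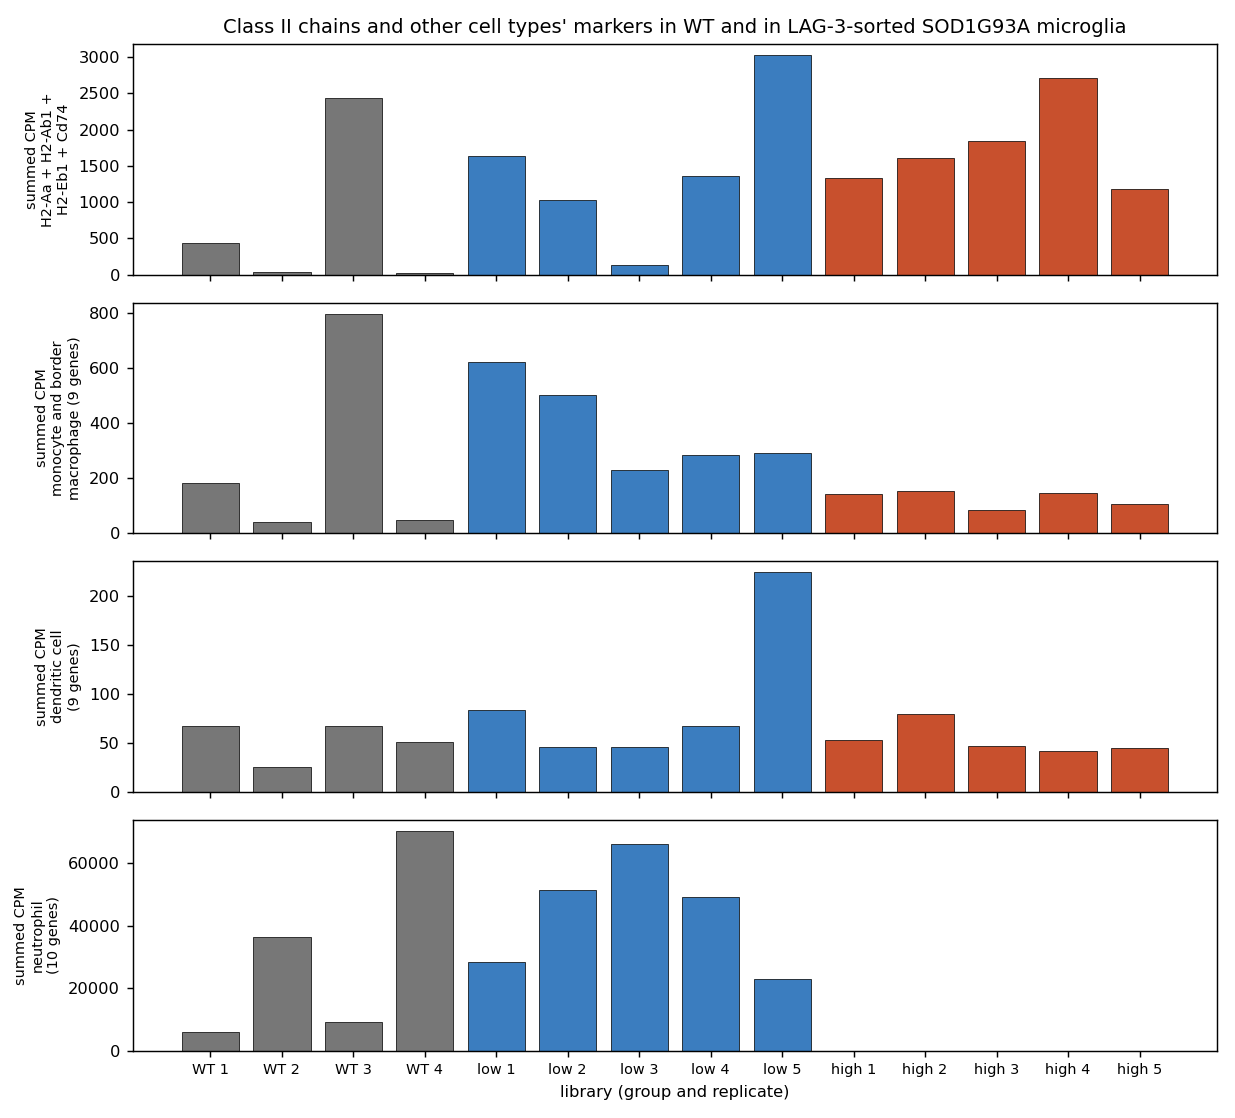
Bars give, for each library of the WT group and both LAG-3 sorts on the x axis, the summed CPM of H2-Aa, H2-Ab1, H2-Eb1 and Cd74 (top) and of the monocyte and border macrophage, dendritic cell and neutrophil marker lists. The class II sum was 435, 37.5, 2436 and 21.0 CPM in WT and 1178 to 2718 CPM in LAG-3-high libraries, where the neutrophil sum is too low to be seen on its axis.

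Against WT, the class II genes called in LAG-3-low microglia were H2-Oa, H2-Ob and Ciita, and none of the chains was called. In LAG-3-low microglia H2-Oa, at 10.9 to 23.6 CPM against 88.4, 25.6, 43.5 and 74.7 CPM in WT, was called lower (log2 -1.61, SE 0.376, adjusted p = 0.0111). H2-Ob, at 38.2 to 75.2 CPM against 138, 53.5, 90.1 and 192 CPM, was also called lower (log2 -1.17, SE 0.329, adjusted p = 0.0271). These were 2 of the 10 genes, and 11% of all genes were called lower. H2-DMa was at 181 to 246 CPM against 494, 281, 340 and 471 CPM (log2 -0.92, SE 0.178, adjusted p = 0.00416), short of the minimum fold. H2-DMa and H2-Oa were below WT in every LAG-3-low library, as were 5.94% of all genes. Summed microglial markers were 28049 to 33747 CPM in WT and 13339 to 20016 CPM in LAG-3-low libraries, with 6 of 8 tested markers called lower, and their part in these values was not tested. Ciita was called higher (log2 5.41, SE 2.12, adjusted p = 0.0930), against 10.9% of all genes, from 19, 177, 0, 0 and 274 counts in LAG-3-low and 6, 0, 2 and 0 counts in WT. That call rested on 3 of 5 libraries and was lost in 7 of 9 fits that left out a library, and H2-Ob lost its call in 1 of 9, without WT replicate 4 (log2 -0.84, adjusted p = 0.0765). DESeq2 called 3 of the 10, and 4704 of all 16508 genes.

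In LAG-3-high against WT microglia none of the 10 genes was called, while 27% of all genes were called. DESeq2 called 3 of the 10 (Cd74, Ciita and H2-Ob), and 5354 of all 16508 genes. At an unadjusted p under 0.05 there were 3 class II genes and 5900 genes in all. Cd74 lay above WT in every LAG-3-high library (885 to 2022 against 3.35 to 815 CPM), as for 12.4% of all genes, with a log2 fold change of 2.49 (SE 1.13, adjusted p = 0.128). WT replicate 3 decided this value, which was 5.24 without it (adjusted p = 0.00402, called). The same library decided H2-Aa, whose log2 fold change was -0.04 with it and 3 without it (adjusted p = 0.181), and in LAG-3-low microglia Cd74 (1.88, adjusted p = 0.259, against 4.61, adjusted p = 0.00858). H2-Ob had a log2 fold change of -0.96 (SE 0.329, adjusted p = 0.0503) and H2-DMa of -0.45 (SE 0.178, adjusted p = 0.0837), both short of the minimum fold. H2-Oa, at 31.9 to 51.7 CPM, overlapped the WT libraries (log2 -0.59, adjusted p = 0.277). Without TMM the median of all genes in this comparison moved from -0.08 to -0.39, and H2-Ob was called.

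**Figure D4:**
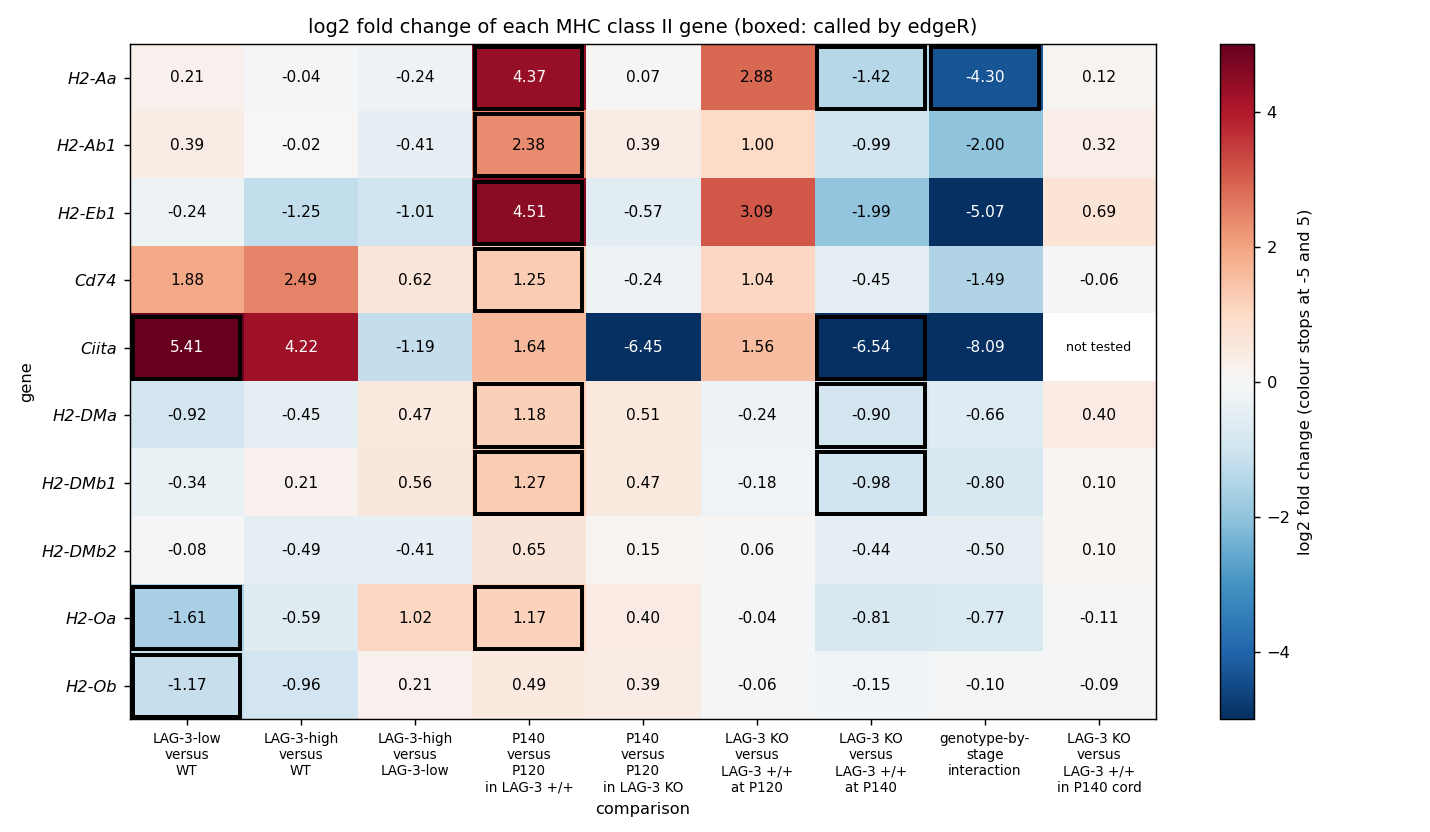
Each cell gives the log2 fold change of 1 class II gene (rows) in 1 comparison (columns), coloured from blue (lower) to red (higher), with the colour scale ending at -5 and 5, and boxed where edgeR called it. KO stands for LAG-3-/-. The boxes are 7 in the column of P140 against P120 in LAG-3 +/+, 4 in that of the genotypes at P140, 3 in that of LAG-3-low against WT and 1 in the interaction.

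In whole P140 SOD1G93A cord the 10 genes summed to 51.9 to 98.5 CPM, against 541 CPM or more in each microglial library. This did not hold for each gene: P120 LAG-3+/+ microglia had H2-Aa at 3.55 to 5.37 CPM, which overlaps the cord values below. None of the 9 genes tested in cord was called between Lag3 genotypes, with 7.52% of 17702 genes called. DESeq2 called none (1271 of all genes), and 1 class II gene and 8441 genes in all had an unadjusted p under 0.05. Cd74 was at 27.6, 28.5 and 32.1 CPM in LAG-3+/+ and at 28.2, 38.2 and 17.9 CPM in LAG-3-/- cord (log2 -0.06, adjusted p = 0.865). H2-Aa was at 4.52, 4.73 and 6.16 CPM and at 4, 10.6 and 1.80 CPM (log2 0.12, SE 0.621, adjusted p = 0.905), and H2-Ab1 was at 6.09, 5.58 and 6.66 CPM and at 6, 12.5 and 4.25 CPM. The LAG-3-/- libraries lay on both sides of the LAG-3+/+ libraries for these 3 genes, and the second was the highest for each. That library also had more summed monocyte and border macrophage markers (15.2 against 5.77 CPM or less) and neutrophil markers (20.2 against 7.60 CPM or less) than the other LAG-3-/- libraries, and their part was not tested. The gene with an unadjusted p under 0.05 was H2-DMa, at 11.5, 10.2 and 11.1 CPM and at 15, 13.9 and 14.2 CPM (log2 0.40, SE 0.124, adjusted p = 0.0259), which did not reach the minimum fold. Its cord values did not overlap, as for 25.4% of all genes in this direction, and summed microglial markers were 935 to 1194 CPM in LAG-3+/+ and 666 to 898 CPM in LAG-3-/- cord, the opposite direction. Ciita, at 1 to 10 counts, was too low to be tested. The signs of H2-Aa, H2-DMb1 and H2-DMb2 turned without TMM, to -0.03, -0.04 and -0.03.

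**Figure D5:**
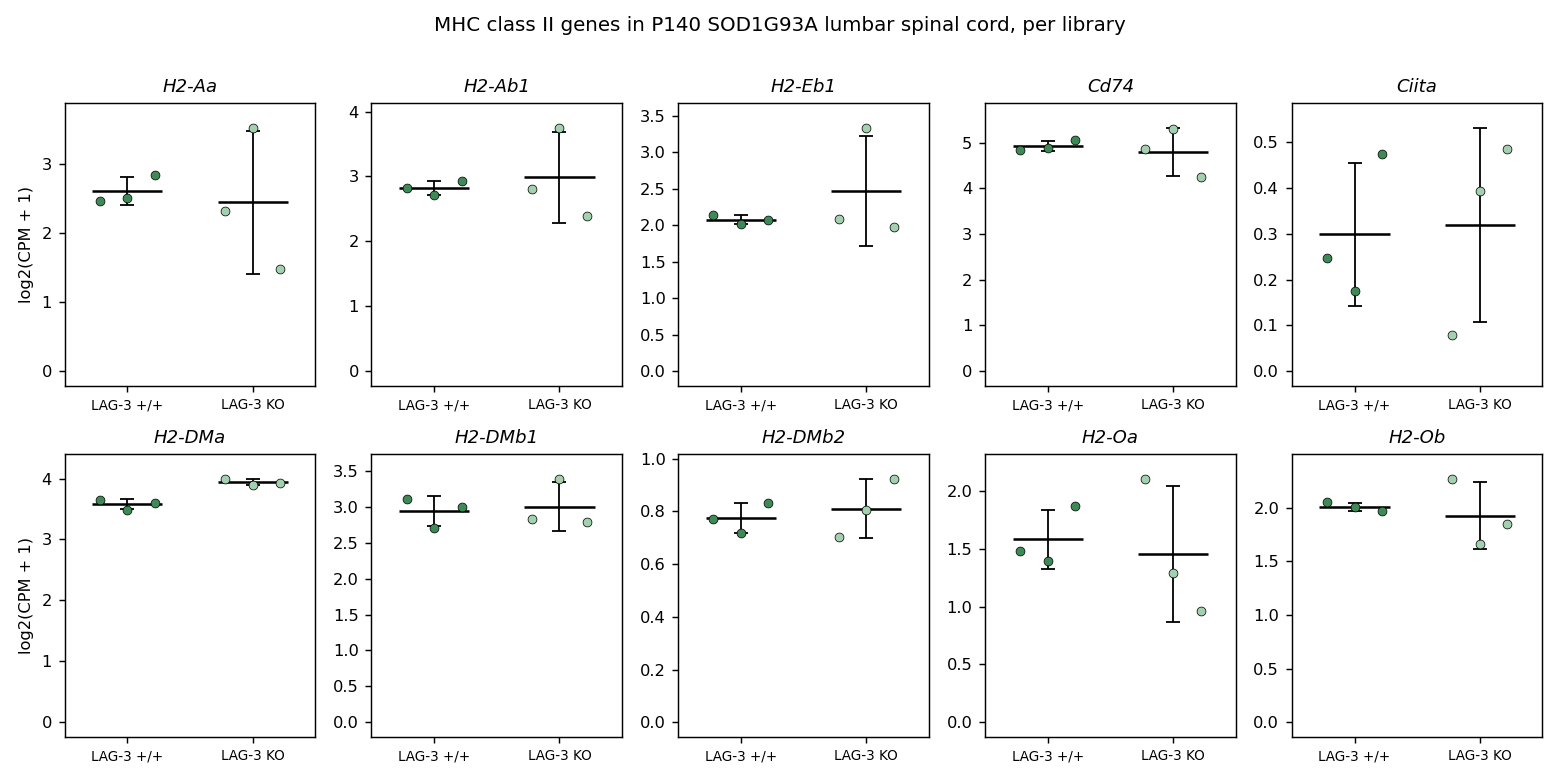
Each panel plots 1 class II gene in lumbar cord of P140 SOD1G93A mice as log2(CPM + 1), for LAG-3 +/+ and LAG-3 KO (LAG-3-/-) libraries on the x axis. Points are libraries and bars are the mean ± SD of 3 libraries. H2-DMa is the panel in which every KO library lies above every +/+ library.

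Genes around the class II pathway were read from lists of transcription factors (7 genes), interferon gamma signalling (9), processing and turnover (6) and costimulation (6). Calls in these lists come from the main fit only and were not recomputed under other settings, such as without TMM. For age in LAG-3+/+ microglia, 11.9% of all genes were called higher and 15.5% lower. Between P120 and P140 in LAG-3+/+ microglia, 3 of 6 processing genes rose: the proteases Ctss (log2 1.51, adjusted p = 0.00821) and Ctsl (1.38, adjusted p = 0.0172), which trim the invariant chain, and the thiol reductase Ifi30 (1.5, adjusted p = 0.0101). Marchf8, a ubiquitin ligase of the family that removes class II from the surface, fell by 1.84 on the log2 scale (adjusted p = 0.0119). Of the 6 costimulation genes 4 rose, among them Cd86 (1.18, adjusted p = 0.00830), Cd83 (0.78, adjusted p = 0.0140) and Cd40 (4.02, adjusted p = 0.0295), and Icosl fell by 2.65 (adjusted p = 0.0163). Cd40 was low and uneven, at 0.259 to 0.657 CPM at P120 and at 0.269, 6.08 and 14.1 CPM at P140. Its lowest P140 library lay within the P120 range. The other riser, Pdcd1lg2, was at 0 in every P120 library and at 3.98 CPM or less at P140. Interferon gamma itself (Ifng) was at 0 in all 12 libraries of this set. Its receptor chain Ifngr1 (0.87, adjusted p = 0.0427) and Irf1 (1.11, adjusted p = 0.0581) rose, while the kinase genes Jak1 and Jak2 fell by 1.85 and 2.65 (adjusted p = 0.0213 and 0.0153). Of the transcription factors 1 of 7 was called, Nfyc, a subunit of the factor that binds the Y box (0.97, adjusted p = 0.0483).

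In the LAG-3-high against LAG-3-low comparison, where no class II gene was called, Ctss (log2 1.01, adjusted p = 0.0156) and Ctsl (1.42, adjusted p = 0.00528) were higher in LAG-3-high cells, as was the costimulation list's Cd83 (1.27, adjusted p = 0.00357), while 0.818% of all genes were called higher. Ctss was at 13845 to 15672 CPM in LAG-3-high and at 5953 to 8695 CPM in LAG-3-low libraries. Against WT, LAG-3-high cells had 3 of 8 tested interferon gamma genes called higher, against 12.1% of all genes, among them Irf8 (1.44, adjusted p = 0.000533) and Ifngr2 (1.20, adjusted p = 0.00703), and higher Ctsl (1.13, adjusted p = 0.00823), and both SOD1G93A groups had higher Lgmn, Cd83 and Icosl. LAG-3-low cells had lower Ifi30 (log2 -1.13, adjusted p = 0.0390) and Marchf1 (-1.31, adjusted p = 0.0893) than WT. At P140, LAG-3-/- microglia had lower Cd86 (-0.74, adjusted p = 0.0880) and higher Marchf8 (2.02, adjusted p = 0.0311) and Icosl (1.91, adjusted p = 0.0988) than LAG-3+/+ microglia, where 7.22% of all genes were called higher and the share called lower is given above. None of the genes tested in the 4 lists was called for Lag3 genotype at P120, for age in LAG-3-/- microglia, for the interaction or for genotype in cord.

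Across the 14 libraries of the sorted set, the genes whose log2 CPM was most like that of H2-Ab1 were H2-Aa (Pearson's r = 0.984) and H2-Eb1 (0.963), with Cd74 at rank 5 of 14399 genes (0.878). Outside the class II genes the nearest were Hddc2 (0.881), Gm71833 (0.879), Igip (0.877), Tmem191 (0.853) and Fkbp1b (0.849). H2-DMb1 was less like it (0.651), and H2-Oa (-0.00666), H2-DMa (-0.145) and H2-Ob (-0.251) did not follow it. Across the 12 stage libraries the values were 0.922 for H2-Aa (rank 4 of 13883 genes), 0.847 for Cd74 (rank 136), 0.844 for H2-Oa (rank 143), 0.832 for H2-Eb1 (rank 202), 0.787 for H2-DMb1 (rank 573), 0.783 for H2-DMa (rank 628), 0.674 for H2-Ob (rank 1791) and 0.525 for H2-DMb2 (rank 2984), and among the nearest genes outside the class II group were Spout1 (0.946), Parl (0.928), Cd14 (0.916) and Uqcc1 (0.912). These values describe libraries that share groups, and each is given without a test.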

How the data were processed

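Microglia were sorted from lumbar spinal cord and made into libraries with Takara's SMART-seq HT LP kit, which does not mark strand, and cord libraries were made with a directional kit. The authors trimmed reads with Trim Galore 0.6.7, quantified them with Salmon 1.9.0 against GRCm39 and imported them in R 4.2.1 with tximport. The deposited tables hold their estimated counts per Ensembl gene, not normalized. The annotation release is not given in the sources used here. Names and positions are those of GENCODE vM39 (71, 66 and 71 identifiers of the sorted, stage and cord tables unmatched).

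Counts were rounded to whole numbers. Each table was fitted in edgeR 4.0.16 (R 4.3.3) after filterByExpr with a count of 10 and a total of 15 as minimum, with TMM and the robust quasi-likelihood test, on 16508, 18669 and 17702 genes, with Benjamini-Hochberg adjustment. The sorted fit had 1 factor of 3 groups, the stage fit genotype, stage and interaction. The threshold was an adjusted p under 0.1, and for sorted and cord comparisons also a log2 fold change above 1 in size. The stage model had no minimum fold, since none is stated for it. CPM use TMM library sizes. The floor was 3 counts, a limit of counting error only. The scripts were tested on simulated data.

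The text names the 10 class II genes, Lag3, called genes of the 4 pathway lists, marker genes, and the 5 genes most correlated with H2-Ab1 per microglial table, apart from a few genes that are not reported here. Pf4, Mrc1, Lyve1, Cd163 and Cd209a were named after their values were seen. Members and lists were chosen with earlier results of these data known. Alternatives were DESeq2 1.42.0, RLE factors, no TMM, other filters and thresholds, the listed sex, a replicate block, fits of only 2 groups, offsets for length and GC content of transcripts (limma 3.58.1 splines), and each replicate left out. No promoter sequence was read for Cd74, which is named only.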

Additional observations from a re-analysis of the deposited data

Results flagged for a closer look

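Of 30 pairs of a class II gene and a sorted group, 2 held a library far from the rest by Dixon's gap test at the 95% level. Chance alone marks about 1 in 20 such groups if values are normal, which was not checked for these CPM. The 2 flags are not independent, since both genes followed H2-Ab1 across this set. Both were WT microglia replicate 3. Its Cd74 level was 815 CPM against 81.6 CPM in the next WT library (gap 0.904 of the range), and its H2-Aa level was 450 CPM against 45.6 CPM (0.899). This library also had the highest WT levels of Mrc1, Lyve1, Cd163 and Pf4, and the part of such cells in its class II level was not tested.

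The effect of the LAG-3-/- genotype on H2-Aa differed between ages in the main fit. The call was lost in 7 of 12 fits that left out a library and with the listed sex as a covariate. Each of the fits that lost it called 0 of all genes for the interaction. The P120 effect alone was not called (edgeR, adjusted p = 0.107). The log2 fold change was 2.88 at P120 and -1.42 at P140, a difference of -4.30 (edgeR interaction, adjusted p = 0.0374), in the direction of 3 of 3 LAG-3-/- libraries at each age.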

How the results depend on the processing

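The number of class II genes called was recomputed under each alternative. The number of all genes called in the same fit follows in brackets. For P140 against P120 in LAG-3+/+ microglia the class II count stayed within 1.5 times of 7 (5118), at 5 to 7 (3218 to 6644). With a replicate left out it was 6 to 7 (3218 to 5255). For the interaction it was 1 (32) in the main fit, 5 with DESeq2 (1301) and 2 without a filter (179). It was 0 with sex (0), 0 with the replicate block (0) and 0 to 5 with a replicate left out (0 to 1713). For genotype at P120 it was 0 (2) in the main fit and 2 with DESeq2 (134). It was 1 each with the length and GC correction (4), without TMM (4) and without a filter (7), and 0 to 1 with a replicate left out (1 to 3). For genotype at P140 it was 4 (1908) in the main fit, 7 with DESeq2 (4281), 2 with sex (1346) and 1 with the length and GC correction (901). It was 1 with the replicate block (814), 0 at an adjusted p under 0.05 (642) and 0 to 5 with a replicate left out (95 to 4140). For LAG-3-low against WT it was 3 (3614) in the main fit and 1 without a filter (2573). It was 1 with only both groups fitted (1721) and 1 to 3 with a replicate left out (2852 to 5775). For LAG-3-high against WT it was 0 (4464) in the main fit, 3 with DESeq2 (5354) and 2 without a minimum fold (5006). It was 1 each with the length and GC correction (3896), no TMM (4722), sex (3997), RLE factors (4560) and only both groups fitted (2663). With a replicate left out it was 0 to 2 (3612 to 6082). For LAG-3-high against LAG-3-low it was 1 with the length and GC correction (684), against 0 (576). For age in LAG-3-/- it was 1 with DESeq2 (449), against 0 (0). For cord it was 1 without a minimum fold (8330), against 0 (1331). In each microglial comparison DESeq2 called more of all genes than edgeR, and in cord fewer. The cause of these changes was not tested.

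Of 1445 single-gene values under an alternative, 1252 kept direction and call, 56 lost a call, 37 gained one, and 100 changed sign without a call in either fit. None changed sign with a call. Deviations from the group mean correlated at 0.0571 on average when a LAG-3-low library was set against the LAG-3-high library of its number (0.00329 to 0.125). Replicates 2 and 4 (0.125 and 0.0997) lay above all such pairs of unequal number (-0.067 to 0.0458), while replicates 1, 3 and 5 lay within that range. Whether low and high cells of equal number came from the same mice was not tested, and the main fit treats them as independent. Libraries of equal number had a mean of -0.00956 in the stage set and 0.0074 in the cord set. For unequal numbers these means were 0.00474 and -0.0039. The replicate block is given as an alternative only. With it, 7 class II genes (4429 of all genes) were called for age in LAG-3+/+ and 2 (2257 of all genes) for LAG-3-low against WT. No class II gene was called for LAG-3-high against LAG-3-low (391 of all genes) or LAG-3-high against WT (3009). The same held for genotype at P120 (1), age in LAG-3-/- (0) and cord (1316). Without TMM the median log2 fold change of all genes was -0.40 for LAG-3-high against LAG-3-low (35 higher of 668 called, in place of 135 of 576), -0.39 for LAG-3-high against WT (1488 of 4722, in place of 2000 of 4464) and -0.13 in cord (485 of 1315, in place of 773 of 1331). Depth limits Ciita, with 0 to 3 counts in several libraries of each microglial set.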
